A study of Flaveria robusta and Flaveria sonorensis and Flaveria ramosissima with 24 samples.

Results

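The genes described here are the 300 most abundant genes that were detected in leaves of Flaveria ramosissima and in none of the other 3 Flaveria species of the study. They were chosen by a rule on the measured values: a value of 0 TPM (transcript abundance corrected for gene length and scaled to the library total) in all 18 libraries of F. robusta, F. sonorensis and F. trinervia, and then the highest mean TPM over the 6 F. ramosissima libraries. Of the 29562 genes in the table, 5269 had values above 0 in F. ramosissima only, and the 300 were taken from these. Their absence from the other species and their high level are therefore a consequence of the choice, and both are given as a description with no test. Their response to low CO2 was not part of the rule.

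Leaf transcript levels were determined by RNA sequencing in 4 species grown at low CO2 or at a control CO2 level, with 3 libraries in each of the 8 groups. The groups were F. ramosissima, F. robusta, F. sonorensis and F. trinervia plants kept for 2 weeks at low CO2, and control plants of the same 4 species. Both F. ramosissima groups, which carry all values of the 300 genes, came from newly expanded mature leaves of chamber-grown plants, at 22 °C and 70% humidity under 16 h of light (200 µmol m-2 s-1) and 8 h of darkness per day. The CO2 setting was 100 for low CO2 and 380 for the control, in the unit the labels give (µmol m-2 s-1, a unit of flux, with no explanation of how it applies to CO2). Neither plant age, nor the number of plants in a library, nor whether replicate libraries came from separate plants is given in the labels, so the SD and p-values measure the spread between these libraries only.

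Flaveria is used to study how C4 photosynthesis evolved, because close relatives in this genus fix carbon in different ways. F. ramosissima and F. sonorensis are intermediate between C3 and C4 plants, while F. robusta is a C3 and F. trinervia a C4 species. In C3 leaves Rubisco also reacts with oxygen, and the photorespiratory pathway recycles the product and releases CO2. C3-C4 intermediates shift part of that release into the bundle sheath cells around the veins, where the CO2 can be fixed again, and F. ramosissima also runs part of a C4 cycle. Low CO2 favours the reaction of Rubisco with oxygen and so raises the load on photorespiration.

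The table names genes by a running ID and pairs no ID with a gene name, a sequence or a function, so no role can be given for any of the 300 genes. A few are printed by ID and the others by their rank in mean TPM. The reference to which each species' reads were assigned is unknown, as is the rule by which genes of 4 species share a row. A value of 0 may therefore mean no detected transcript, a transcript counted under another row, or a row for which a species had no target, and these cannot be told apart. In bulk leaf tissue, fewer cells of a type and less RNA per cell cannot be told apart either. TPM keeps no record of depth, so sequencing depth is unknown. The deposited TPM of the 6 F. ramosissima libraries added up to between 910078 and 925049, and those of all 24 libraries to between 857693 and 930239.

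The mean TPM of the 300 genes ran over 2 orders of magnitude. The highest mean was 5343 TPM and the lowest 39.7 TPM, with a median of 79.2 TPM and quartiles of 55.9 and 161 TPM. The 10 most abundant had a mean of at least 1000 TPM, 114 lay from 100 to under 1000 TPM, and 176 lay under 100 TPM. The last gene included had a mean of 39.7 TPM and the first one left out 39.5 TPM, so the limit at rank 300 falls in a continuous slope. Among all 25070 genes above 0 in F. ramosissima, whose median was 2.20 TPM, 6 of the 300 stood among the 100 most abundant and 47 among the 500 most abundant, and the last stood at place 2308. By comparison, the median over all 5269 genes found in F. ramosissima only was 0.95 TPM, and 2595 of them (49.3%) reached a mean of 1 TPM.

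Gene22568 was the most abundant, at place 24 among all genes of the species. It measured 5628, 4627 and 5335 TPM in the 3 low CO2 libraries, against 5272, 4969 and 6224 TPM in the 3 control libraries. The 2 groups overlapped, and no library stood apart. Gene08805 measured 4073, 2755 and 3604 TPM at low CO2, against 4131, 3234 and 4143 TPM in controls. Gene17924 measured 2613, 1724 and 2173 TPM at low CO2, against 2071, 1920 and 2550 TPM in controls. In both of these genes the groups overlapped. In all 3 genes, Gene22568 included, replicate 2 of each treatment was the lowest of its group. These 3 genes held 18.5% of the summed TPM of the 300, the 10 most abundant held 33.8% and the 100 most abundant 77.8%.

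**Figure D1:**
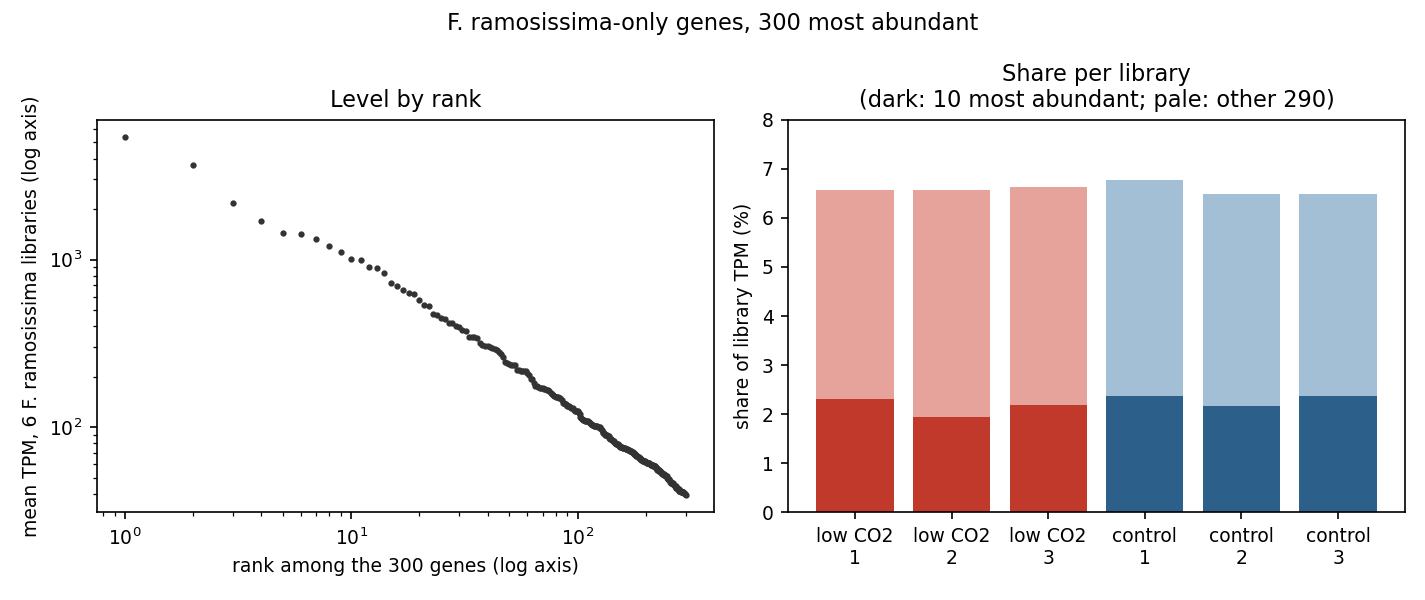
Left, mean TPM over the 6 F. ramosissima libraries of the 300 genes against their rank (both log axes). Right, percent of each library's TPM held by the 300, with the 3 low CO2 libraries left of the 3 controls, the 10 most abundant as the dark part of each bar and the other 290 as the pale part. The levels slope from 5343 TPM to 39.7 TPM without a break, and all 6 bars end between 6.47% and 6.77%.

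The 300 genes together held 6.56%, 6.56% and 6.63% of the TPM in the low CO2 libraries, against 6.77%, 6.47% and 6.48% in the control libraries. The means were 6.58% ± 0.0426 at low CO2 and 6.57% ± 0.169 in controls (SD, n = 3 each). The difference of 0.0109 percentage points was smaller than the spread between replicates in either group. The 10 most abundant held 2.30%, 1.94% and 2.19% at low CO2, against 2.37%, 2.17% and 2.36% in controls. The other 290 held 4.26%, 4.62% and 4.44% at low CO2, against 4.40%, 4.30% and 4.11% in controls. Both sets of values overlapped between the treatments. The 300 made up 77.4% of the TPM of all genes found in F. ramosissima only, which held between 8.16% and 8.86% of a library.

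The same rule gave much smaller sets in the other species. Genes detected in a single species numbered 5269 in F. ramosissima, which is 21.0% of the 25070 genes above 0 there, against 847 (4.52%) in F. robusta, 557 (3.34%) in F. sonorensis and 671 (3.58%) in F. trinervia. At a mean of at least 39.7 TPM, the level of the last of the 300, the counts were 300 of 2308 genes (13.0%) in F. ramosissima, against 17 of 1997 (0.851%) in F. robusta, 11 of 2683 (0.410%) in F. sonorensis and 19 of 2207 (0.861%) in F. trinervia. The 300 most abundant of each set held 6.47% to 6.77% of a library in F. ramosissima, against 0.323% to 0.436% in F. robusta, 0.497% to 0.587% in F. sonorensis and 1.70% to 2.45% in F. trinervia. No test was made between species, since the reference behind each species is unknown and its part in these counts was not tested. Only F. ramosissima and F. trinervia had single-species genes at a mean of at least 1000 TPM, with 10 and 6 such genes. The highest mean was 5343 TPM in F. ramosissima and 8674 TPM in F. trinervia.

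The zeros of abundant F. ramosissima genes came mostly in blocks of whole species. Among the 2308 genes with a mean of at least 39.7 TPM in F. ramosissima, 1439 had no zero in the 18 other columns, 258 had 6 zeros, 201 had 12 and the 300 had 18. These 4 counts covered 95.2% of the genes. That share includes the 1439 genes without a zero and the 300, whose 18 zeros were fixed by the rule. Each of the other possible numbers of zeros held at most 18 genes. The 6 zeros were the 6 columns of 1 species in all 258 genes, and the 12 zeros were the columns of 2 species in 200 of the 201. Of the 258, 165 were at 0 in F. sonorensis, 55 in F. robusta and 38 in F. trinervia. Just outside the rule were 7 genes with 17 zeros, whose single value above 0 lay between 0.08 and 2.42 TPM. The pattern also ran the other way: 4492 rows were at 0 in all 6 F. ramosissima columns, of which 807 were at 0 in all 24 libraries, 589 had values above 0 in all 3 other species and 11 had a mean of at least that level in each of the 3.

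**Figure D2:**
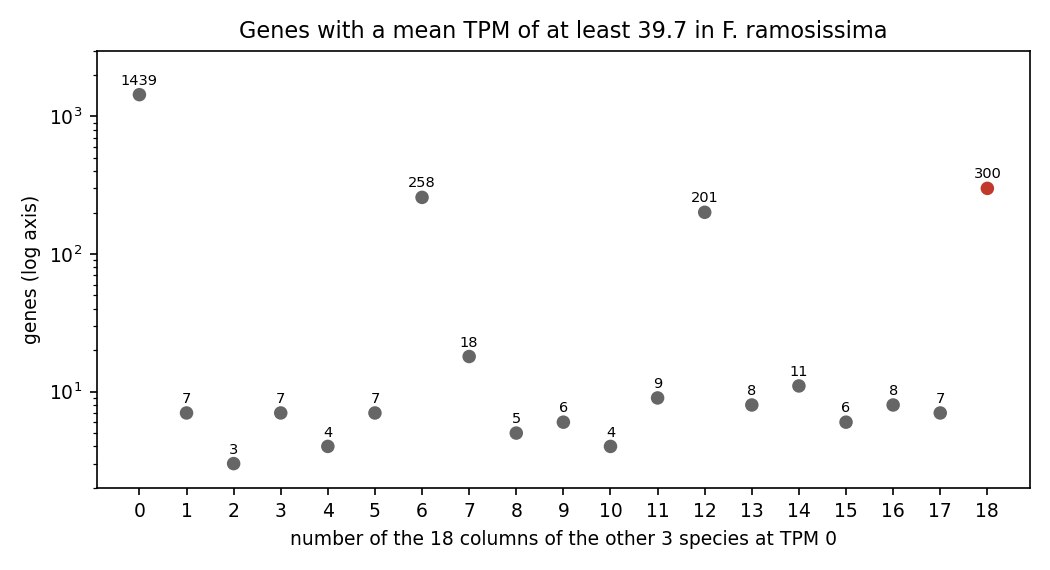
Number of genes (log axis) against how many of the 18 columns of F. robusta, F. sonorensis and F. trinervia were at TPM 0, over the 2308 genes with a mean of at least 39.7 TPM in F. ramosissima. The 300 genes described here are the point at 18 zeros, fixed by the rule, and 1439, 258 and 201 genes lie at 0, 6 and 12 zeros. The 6 and 12 zeros were whole species in 258 and 200 of these genes.

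Within F. ramosissima the 300 genes were detected throughout. Of them, 299 were above 0 in all 6 libraries, and 1, the gene at rank 203, was listed at 0 in 2 low CO2 libraries. The ratio of the highest to the lowest of the 6 libraries was under 1.5 in 81 genes, from 1.5 to under 2 in 98, from 2 to under 5 in 97 and at least 5 in 23, with a median of 1.83. The median coefficient of variation between replicates was 18.8% for the 300, against 24.1% for all 15899 genes with a mean of at least 1 TPM and 18.2% for the 2008 other genes at the same level. The 300 therefore varied between replicates about as much as other genes of their abundance. Across the 300, Spearman's rho between replicate libraries of a group lay between 0.916 and 0.972. Between libraries of different treatments it lay between 0.910 and 0.958, so the 2 ranges overlapped. Both are correlations across genes of libraries that share a species and a reference.

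The steadiest and the most variable genes stood far apart, as measured by the ratio of the highest to the lowest library. The gene at rank 32 measured 388, 381 and 377 TPM at low CO2, against 362, 374 and 358 TPM in controls, a ratio of 1.09 between the highest and lowest library. Among the 299 genes above 0 in all libraries, the highest ratio, 46.9, was at rank 270, which measured 23.1, 86.3 and 69.2 TPM at low CO2, against 1.84, 43.8 and 44.4 TPM in controls. Its lowest library was replicate 1 of each treatment, and the treatments overlapped. Ranks 167, 248 and 265 followed, with ratios of 18.9, 18.4 and 17.1. The gene at rank 167 measured 9.49, 179 and 49.3 TPM at low CO2, against 15.8, 161 and 24.8 TPM in controls. Its replicate 2 was the highest of each treatment, and the treatments overlapped. The gene at rank 248 had the same order, with 13.6, 88.2 and 39.9 TPM at low CO2, against 5.92, 109 and 50.2 TPM in controls. The gene at rank 265 had its lowest value in replicate 2 of each treatment, with 84.6, 5.86 and 40.0 TPM at low CO2, against 29.6, 13.6 and 100 TPM in controls. Nothing in the labels ties libraries of the same number together, and the calls below do not use the numbers unless said.

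The first principal component of the 300 parted the treatments. In a principal component analysis of their log2(TPM + 1) values, the first component explained 46.7% of the variance, with scores of 3.81, 5.87 and 6.76 in the low CO2 libraries, against -8.44, -3.83 and -4.18 in controls. Without the rank 203 gene it explained 42.5%, with scores of 0.51, 7.42 and 5.36 at low CO2, against -6.86, -1.51 and -4.91 in controls. The groups did not overlap on either, although low CO2 replicate 1 then lay close to the controls. In the 2008 other genes of the same level, the treatments were parted by the second component, with 31.6% of the variance, and not by the first, with 38.1%.

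**Figure D3:**
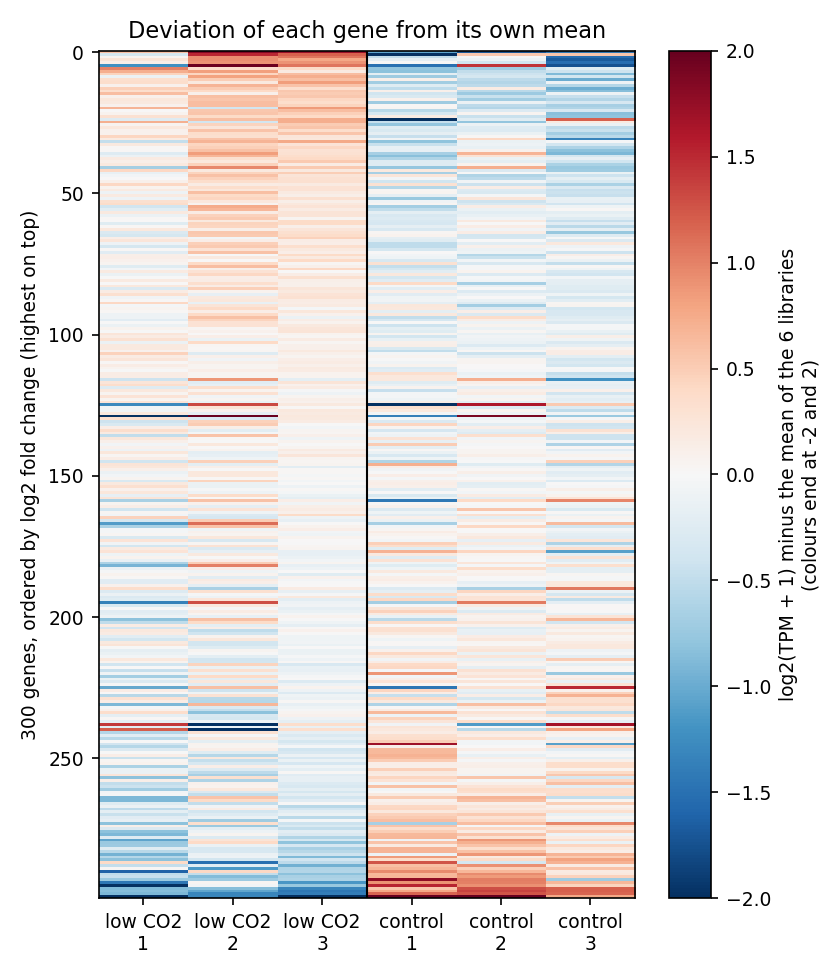
Each of the 300 genes as a row and each F. ramosissima library as a column, coloured by log2(TPM + 1) minus the gene's mean over the 6 libraries (colours end at -2 and 2), with the 3 low CO2 libraries left of the 3 controls and genes ordered by log2 fold change. Colours are pale in most rows, strong at the top and bottom ends, and strong within a group in a few rows in between, such as ranks 167 and 248.

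The response to low CO2 was tested in F. ramosissima with limma on log2(TPM + 1) over the 15899 genes with a mean of at least 1 TPM, which include all 300, and a gene was called at a Benjamini-Hochberg adjusted p below 0.05 over all of these. Fold changes are low CO2 over control, and the added 1 TPM makes those of weakly detected genes appear too small. Of the 300 genes, 1 rose and 4 fell. Over all genes tested, 0.101% were called higher and 0.189% lower. Among the 2008 other genes of the same level, 6 were called higher and 9 lower. The counts are small on both sides and change with the libraries included, as given below. In a limma fit with the replicate number as a block, 1 of the 300 was called higher and 9 lower, among 206 calls over all genes, against 46 without it. The median log2 fold change of the 300 was 0.08, with quartiles of -0.23 and 0.32. It was 0.00 over all genes tested and 0.03 over the 2008 other genes of the same level. The median over all genes moved with the libraries included, as given below. The fold change was above 0 in 169 of the 300 (56.3%), and 137 lay within 1.2-fold of no change. At least a 2-fold difference was seen upward in 8 genes and downward in 15.

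More of the 300 leaned one way or the other than the calls show. At an unadjusted p below 0.05, 70 of the 300 passed (23.3%), 39 higher and 31 lower, against 9.68% of all genes tested and 12.5% of the 2008 other genes of the same level. All 3 low CO2 libraries lay above all 3 controls in 54 genes (18%), against 6.77% of all genes and 10.5% of the others at that level. All 3 lay below the controls in 34 genes (11.3%), against 7.36% of all genes and 7.57% of the others at that level. The shares among the 300 were above both backgrounds in each direction. Genes of neighbouring ID moved together, as described below, so the 300 do not count as separate observations, and no test was made over the list.

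The single gene that rose was Gene15647, at rank 28 of the 300. It measured 399, 937 and 866 TPM at low CO2, against 125, 80.2 and 96.4 TPM in controls. All 3 low CO2 libraries were above all 3 controls, and low CO2 replicate 1 was the lowest of its group. Means were 734 ± 292 TPM at low CO2 and 101 ± 22.8 TPM in controls (SD, n = 3 each). The log2 fold change was 2.78 ± 0.33 (SE), the highest of all 15899 genes tested, with an adjusted p of 0.0213 by limma.

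The lowest adjusted p among the 300 belonged to Gene31654, at rank 278, which fell. It measured 16.2, 11.97 and 11.3 TPM at low CO2, against 70.7, 75.6 and 71.0 TPM in controls. The groups were far apart and each was tight, with means of 13.2 ± 2.64 TPM at low CO2 and 72.4 ± 2.76 TPM in controls (SD, n = 3 each). Its log2 fold change was -2.39 with an SE of 0.20 and an adjusted p of 0.0155 by limma. Gene31653, the row just before it and at rank 141, measured 34.9, 30.4 and 23.1 TPM at low CO2, against 109, 164 and 146 TPM in controls. It also fell without overlap, at a log2 fold change of -2.21 with an SE of 0.24 (adjusted p = 0.0156 by limma).

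The remaining genes that fell were at ranks 134 and 153. The rank 134 gene measured 37.4, 38.3 and 27.2 TPM at low CO2, against 103, 172 and 161 TPM in controls, and its log2 fold change was -2.04 with an SE of 0.25 (adjusted p = 0.0218 by limma). The rank 153 gene measured 50.1, 37.6 and 43.8 TPM at low CO2, against 110, 127 and 96.4 TPM in controls, and its log2 fold change was -1.32 with an SE of 0.20 (adjusted p = 0.0452 by limma). In each, every low CO2 library was below every control.

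These 5 calls kept their direction whichever of the 6 libraries was left out, but none was kept throughout. None of the 300 was called without low CO2 replicate 2, low CO2 replicate 3, control replicate 2 or control replicate 3, where 64, 45, 65 and 61 of them had an unadjusted p below 0.05. Without low CO2 replicate 1 the calls were 1 higher and 2 lower, and without control replicate 1 they were 1 higher and 4 lower, of which 4 were among the same 5. Over these 6 fits the adjusted p ran from 0.0135 to 0.0902 for Gene15647, from 0.0124 to 0.0794 for Gene31654, from 0.0124 to 0.0879 for Gene31653, from 0.0124 to 0.133 for rank 134 and from 0.0694 to 0.290 for rank 153. The log2 fold changes moved less, from 2.56 to 3.17 for Gene15647 and from -2.54 to -2.30 for Gene31654.

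**Figure D4:**
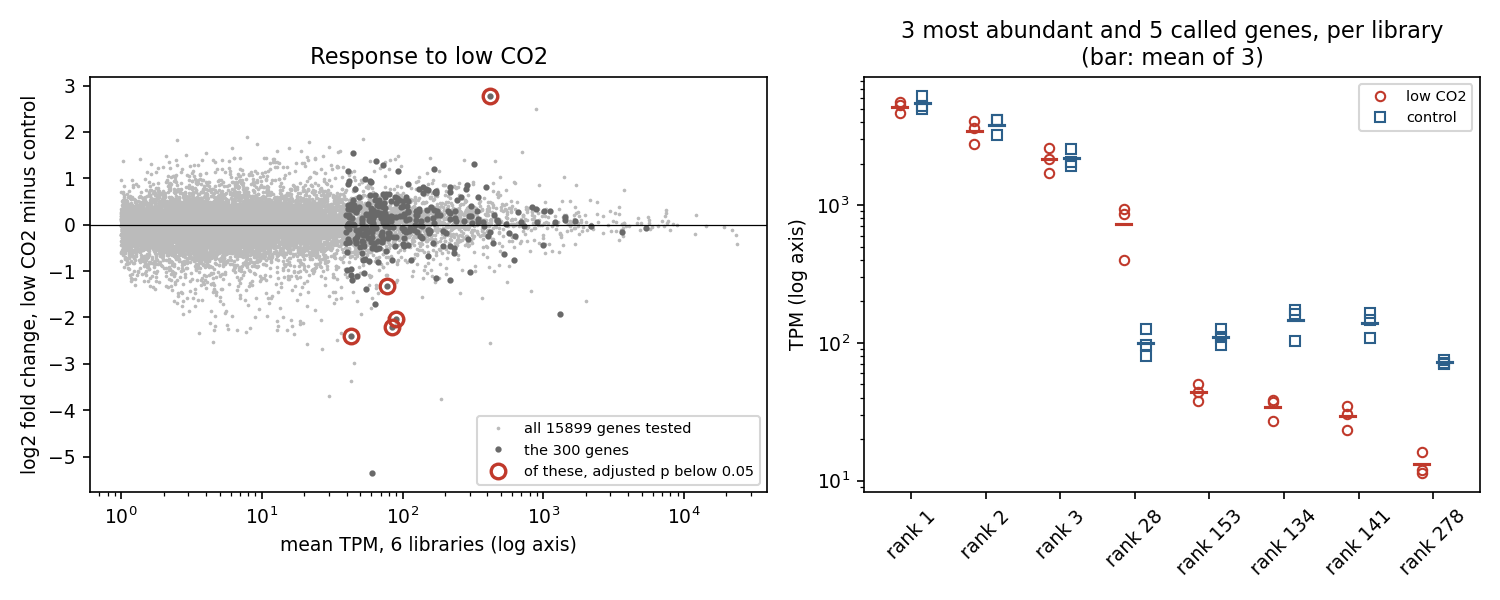
Left, log2 fold change (low CO2 minus control, on the log2(TPM + 1) scale) of the 300 genes against mean TPM (log axis), over all 15899 genes tested, with the 5 called genes circled. Right, TPM (log axis) in each library of the 3 most abundant genes and the 5 called, labelled by rank, with low CO2 left of control and a bar at each mean of 3. The 3 most abundant overlap between treatments, and the 5 called do not.

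The most abundant genes did not pass the test. Group means were 5197 ± 514 TPM at low CO2 and 5488 ± 655 TPM in controls for Gene22568 (log2 fold change -0.08, limma adjusted p = 0.929). They were 3477 ± 668 TPM at low CO2 and 3836 ± 521 TPM in controls for Gene08805 (log2 fold change -0.15, limma adjusted p = 0.876). For Gene17924 they were 2170 ± 444 TPM at low CO2 and 2181 ± 329 TPM in controls (log2 fold change -0.02, limma adjusted p = 0.994; SD, n = 3 each in all 3 genes). Within the 10 most abundant, 7 lay within 1.2-fold of no change, and the gene at rank 7 had the only difference above 2-fold. It measured 240, 965 and 592 TPM at low CO2, against 2898, 1888 and 1371 TPM in controls. Its groups did not overlap, but with a log2 fold change of -1.92 and a limma adjusted p of 0.183 it was not called.

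By rank, none of the 10 most abundant was called, 1 of the 90 genes at ranks 11 to 100 was called higher, and 4 of the 200 at ranks 101 to 300 were called lower. The median log2 fold change was 0.07, 0.13 and 0.03 in these 3 classes. The lowest fold change of the 300, and of all genes tested, was that of rank 203, a gene set largely by 1 library. It was listed at 0, 3.19 and 0 TPM at low CO2, against 291, 55.0 and 16.7 TPM in controls. Control replicate 1 held 79.6% of its summed TPM. With a low CO2 mean of 1.06 TPM, it too entered the list through its controls. It was not called, with a limma adjusted p of 0.0741, and its fitted value of -5.36 depends on the pseudocount.

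The 300 genes were uneven in the order of IDs, a property the rule did not use. IDs ran from 1 to 34045, and 229 of the 300 (76.3%) lay above 20000, against 79.1% of all genes found in F. ramosissima only and 47.2% of all rows. There were 26 pairs of the 300 with consecutive IDs, all above 20000. They formed 21 runs, 17 of 2 genes, 3 of 3 and 1 of 4, which held 47 of the 300. The sources do not say whether IDs follow position in a genome.

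Neighbours in ID order had similar responses. In 23 of the 26 pairs (88.5%) both fold changes had the same sign, and the median difference within a pair was 0.13 on the log2 scale. Across the 26 pairs Pearson's r was 0.92 and Spearman's rho 0.92. Without the pair in the stretch of 8 IDs described below, r was 0.88 and rho 0.91 over 25 pairs. These are correlations across pairs that share all 6 libraries, and some pairs share a gene, so they carry no p. The 2595 genes found in F. ramosissima only that had a mean of at least 1 TPM and so were tested held 590 consecutive pairs. These had the same sign in 72.0%, and r was 0.66, or 0.61 without the stretch. At IDs up to 20000 there were 11 such pairs, of which 3 (27.3%) had the same sign, with an r of 0.66. Over the 9509 tested genes above 0 in all 4 species, 3023 consecutive pairs had the same sign in 49.6% and r was 0.04.

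The likeness fell with distance in ID. Among tested genes found in F. ramosissima only with IDs above 20000, r was 0.67 at a distance of 1, 0.62 at 2, 0.46 at 5, 0.13 at 10 and 0.03 at 20. Among tested genes above 0 in all 4 species it lay between -0.06 and 0.09 at each distance computed. It was also seen without the treatment: the deviations of single libraries from their group mean had r of 0.71 across the 26 pairs, against 0.55 in the 590 pairs of tested genes found in F. ramosissima only and 0.22 in the 3023 pairs of tested genes above 0 in all 4 species. The other species had 4, 2 and 2 consecutive pairs of single-species genes, too few to compare.

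The runs went both ways. The run of 4 had log2 fold changes between -0.47 and -0.37, and a run of 3 lay between -0.81 and -0.58, with none of these genes called. Other runs of 3 lay between 0.57 and 0.66 and between 0.53 and 0.95, again without a call. The members at ranks 37 and 190 have consecutive IDs. Rank 37 measured 331, 526 and 474 TPM at low CO2, against 244, 255 and 85.2 TPM in controls. Rank 190 measured 56.8, 105 and 116 TPM at low CO2, against 38.6, 53.3 and 18.3 TPM in controls. In both, every low CO2 library was above every control and control replicate 3 was the lowest, and the log2 fold changes of 1.31 and 1.37 had limma adjusted p of 0.284 and 0.267.

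The genes that fell were also grouped. Gene31653, Gene31654 and the rank 134 gene lie in a stretch of 8 consecutive IDs that starts at Gene31653, at places 1, 2 and 6 of it. The stretch was chosen after its values were seen. All 8 genes were lower at low CO2, with log2 fold changes between -2.39 and -1.58 and control means 3.18 to 5.89 times those at low CO2. Of the 8, 7 were called (limma adjusted p from 0.0155 to 0.0355), and the gene at place 3 was not (adjusted p = 0.207). They make up 7 of the 30 genes called lower among all genes tested. The row before the stretch was at most 0.31 TPM in every library, and the row after it had a log2 fold change of 0.25 (limma adjusted p = 0.827).

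**Figure D5:**
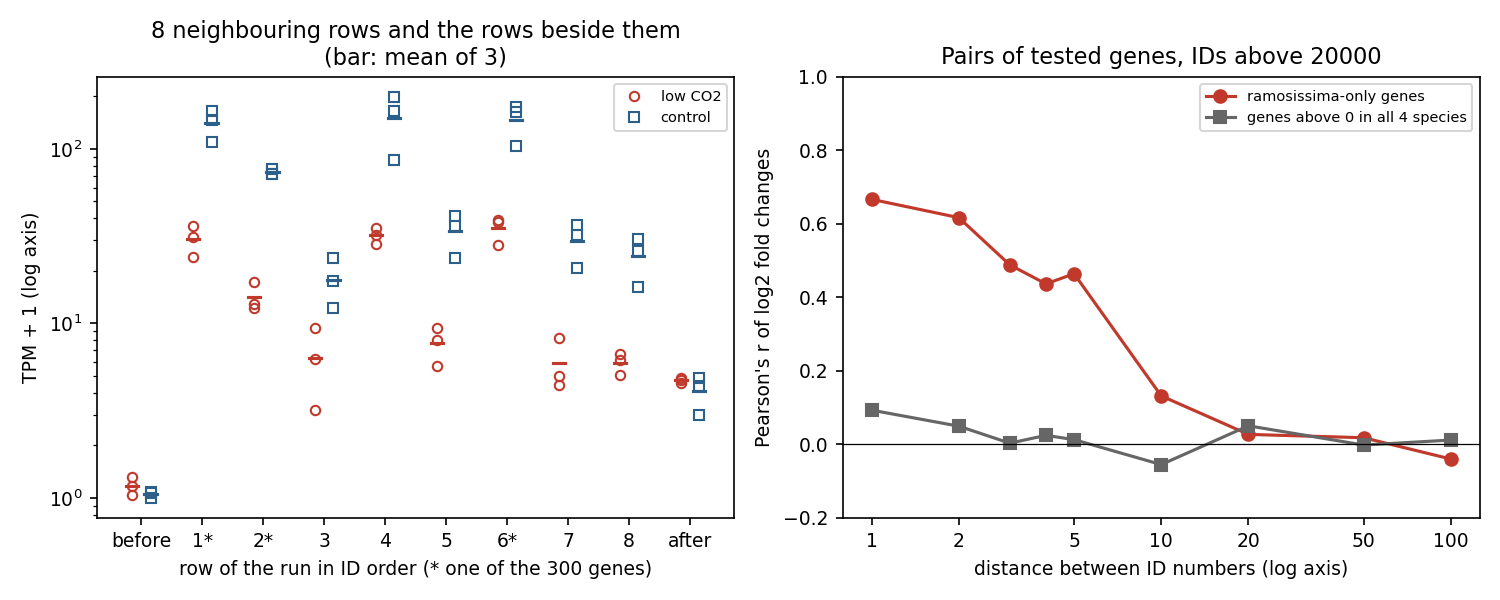
Left, TPM + 1 (log axis) in each F. ramosissima library for the 8 consecutive rows and the rows before and after them, with low CO2 left of control, a bar at each mean of 3 and the 300 genes starred. Right, Pearson's r of log2 fold changes between tested genes against their distance in ID (log axis, IDs above 20000), for genes found in F. ramosissima only and genes above 0 in all 4 species. The 8 rows are lower at low CO2 and the rows beside them lie low in both groups, and r falls from 0.67 at a distance of 1 to 0.03 at 20 in the first set.

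Not all of this stretch was particular to F. ramosissima. The gene at place 8 averaged 4.94 TPM at low CO2 and 23.2 TPM in controls of F. ramosissima, while its means over both treatments were 64.1 TPM in F. robusta, 334 TPM in F. sonorensis and 251 TPM in F. trinervia. The gene at place 4 averaged 31.0 TPM at low CO2 and 149 TPM in controls of F. ramosissima, with means of 4.88 TPM in F. robusta, 0 in F. sonorensis and 3.07 TPM in F. trinervia. The other 6 were at 0 in all 3 other species. Whether neighbouring rows share reads, or are pieces of the same transcript, was not tested.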

How the data were processed

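The deposited table holds TPM, 1 row per gene and 1 column per library, computed by the authors. The submitters' processing notes name RSEM, with no version or role, and edgeR, with no version. Not given in the sources used here are the aligner and the reference of each species with its build. No read counts were used. Groups and replicate numbers came from the sample titles. The members and lists were chosen with earlier results of these data known. TPM were tested as log2(TPM + 1) with limma 3.58.1 in R 4.3.3 (lmFit, eBayes with a mean trend) on the 6 F. ramosissima libraries, for genes with a mean of at least 1 TPM, with Benjamini-Hochberg adjustment over 15899 genes and calls at an adjusted p below 0.05. The fit was tested on simulated data. Levels, shares and zeros were summarised with pandas 2.3.3 in Python 3.11.15. Printed by ID were the 3 most abundant members and, among those called, up to 2 with the highest and 2 with the lowest log2 fold change. Alternatives changed the pseudocount (0.1), the filter (none, or 5 TPM), the scaling (median of ratios, quantile, total of the genes that are not members), the prior spread (no trend, robust), the replicate block, the libraries and the rule of membership. Total TPM per library is given with the results, and depth is unknown, so precision rests on 3 libraries per group.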

Additional observations from a re-analysis of the deposited data

How the results depend on the processing

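Of 202 alternative values, 154 were classed as unchanged, 31 single-gene values lost the call and 17 counts or medians moved. Unchanged meant that a gene kept its call or its lack of one, or that a count stayed within a fixed ratio. For medians and shares it meant a move smaller than the spread between libraries. Genes not called could change sign: Gene22568, Gene08805 and Gene17924 kept theirs in 13, 14 and 12 of 15 alternatives. No direction of a called gene reversed. Leaving out 1 library at a time gave 0 to 1 members called higher, 0 to 4 lower, a median log2 fold change of 0.06 to 0.10, 96 to 135 members without overlap between groups (a count that rises by construction with fewer libraries) and a share difference of -0.0381 to 0.109 percentage points. Over all genes, 46 calls became 8, 0 and 0 without low CO2 replicate 1, 2 and 3, and 46, 0 and 2 without control replicate 1, 2 and 3. With no filter on low values, 25070 genes were tested, 3 were called, and 0 members were called higher and 1 lower, with 68 members at an unadjusted p below 0.05 by limma. A replicate block (the replicate number beside treatment) gave 206 calls, with 9 members lower. Deviations of same-numbered libraries correlated at 0.34, 0.47 and 0.0958 over all genes tested and at 0.37, 0.62 and 0.28 over the 300. The first set, on which the fit runs, has a value under the limit of 0.1, so the calls reported come from the fit without a block, but over the 300 all 3 pass it, and in both sets each library correlated best with its own number. Whether the numbers pair the libraries is therefore unsettled. Taking all 2595 genes found in F. ramosissima only with a mean of at least 1 TPM gave 4 higher and 9 lower. Over all genes tested, 0.101% were called higher and 0.189% lower. Without overlap were 420 of the 2595 (16.2%), against 29.3% of the 300 and 14.1% of all genes tested. Among the 2295 of them outside the 300, 332 (14.5%) did not overlap. Ranking by the control mean gave a median log2 fold change of 0.0107, on a list whose choice favours high controls. The gene at rank 153 was called in 4 of 15 alternatives, with adjusted p from 0.0298 to 0.290 by limma, and the other 4 called members in 9 to 11. The self-test and these fits do not show how many reads stand behind a value.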
